A study of Mus musculus with 12 samples.

Results

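Kpna2 and the other importins are 8 genes that carry proteins between the cytoplasm and the nucleus, out of 55679 genes measured in the lung and heart of Adam19 WT and KO mice. They were Kpna1, Kpna2, Kpna3, Kpna4 and Kpna6 of the importin alpha family, the importin beta gene Kpnb1, the export factor Cse1l and the Kpna2 copy Gm10184, and they held 44 of the 147907 transcripts measured. All members were found in both the gene and the transcript table by their gene names. Kpna2 and Gm10184 were chosen by their values in KO against WT lungs, so that contrast is described for them without a test, and the other 6 were chosen as the rest of the same transport system. The mice were 6 males of the strain 129S6/SvEvTac, aged 9 to 13 weeks, whose whole lungs and hearts gave 12 RNA libraries, 1 for each tissue of each mouse. The 3 WT mice carried the endogenous Adam19 locus. The 3 KO mice were homozygous for the Adam19-tdTomato allele, in which exons 6 and 7 of Adam19 are replaced by a tdTomato reading frame with a hygromycin resistance cassette, so the loss is in every cell that uses the gene and the controls carry no cassette. The mouse identifiers of WT and KO mice share no prefix, so whatever the prefix stands for cannot be told apart from genotype.

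Importin alpha proteins are adaptors. Each binds a protein that carries a nuclear localisation signal and is itself bound by importin beta, which takes the complex through the nuclear pore. Inside the nucleus, the GTP form of the small GTPase Ran releases the cargo, and Cse1l, with Ran, returns importin alpha to the cytoplasm for another round. The alpha proteins fall into subfamilies that prefer different cargoes, with Kpna1 and Kpna6 in one, Kpna3 and Kpna4 in another and Kpna2 apart from both. Kpna2 is known for high levels in dividing cells.

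Kpna2 has a near-identical copy elsewhere in the genome, and the bases that tell them apart decide where a read is counted. Kpna2 (ENSMUSG00000018362.15) lies on the reverse strand of chromosome 11 of GRCm39, from 106879455 to 106890367. Gm10184 (ENSMUSG00000066878.6, named Kpna2rt in a later annotation, GENCODE vM39) lies on the reverse strand of chromosome 17, from 90215890 to 90217877, as a single exon annotated as protein coding. The full-length Kpna2 transcript and the Gm10184 transcript differed at 2 of 1968 aligned nucleotides, A696G and C741T, with the Kpna2 base before the position and the base of the copy after it, and positions counted from 1 at the A of the start codon. Both lie in exon 7 of the 11 exons of Kpna2, at the last base of codons 232 and 247, and the translated reading frames of 529 residues had 0 differences. The pseudogene Gm10259 on chromosome 3 carries both substitutions and also C90T. The coding stretch around the 2 positions is shown for these 3 genes because no other stretch of the aligned transcripts separates Kpna2 from Gm10184. It lies in exon 7 of Kpna2 (chr11:106882074-106882139), in the single exon of Gm10184 (chr17:90216994-90217059) and in Gm10259 (chr3:25266019-25266084), on the reverse strand in each, with the differing bases in capitals, from the GENCODE vM39 transcripts.
Kpna2: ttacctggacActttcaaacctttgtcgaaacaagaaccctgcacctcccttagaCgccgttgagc
Gm10184: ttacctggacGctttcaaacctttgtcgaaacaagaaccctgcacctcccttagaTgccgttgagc
Gm10259: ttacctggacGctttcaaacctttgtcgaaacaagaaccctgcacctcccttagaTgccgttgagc
Any read that does not cover 1 of these 2 bases, or the short ends outside the alignment, matches both genes alike, and reads from the 2 genes are then divided by estimation. The other alpha genes are much further from Kpna2. Its translated frame was identical at 47.5% (Kpna6) to 51.3% (Kpna4) of aligned residues, while Kpna1 and Kpna6 were identical at 81.8% and Kpna3 and Kpna4 at 85.8%.

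The values are on a log2 scale as deposited, with an adjustment between libraries. A gene was called where limma gave an adjusted p under 0.05, the change was at least 1.5-fold and the larger group mean was at least 6. The libraries held 17674788 to 35862932 estimated counts. The small RNA Rn7s1 took 2.18% to 33.7% of the counts in lung libraries, with the highest shares in WT replicates 1 and 2, and 2.70% to 11.8% in heart libraries, and its part in the results was not tested. Adam19 itself was 45.5-fold lower in KO than in WT lungs (adjusted p = 0.000186, limma) and 8.84-fold lower in KO hearts (adjusted p = 0.00558, limma). Lung epithelium markers summed to a log2 value of 18.8 to 19.1 in the lungs and at most 10.7 in the hearts, and heart muscle markers to 20.6 to 21.0 in the hearts and at most 14.5 in the lungs. Of 33 markers of 8 cell types, the lung test took in 32 and the heart test 25. For genotype 0 were called in either, with 4 in the lung (Myh6, Scgb1a1, Sftpc and Siglecf) and 0 in the heart at an unadjusted p under 0.05 from limma and 0 by limma-voom in both.

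In both tissues, the signal shared between Kpna2 and its copy lay in Gm10184 in the WT mice and in Kpna2 in the KO mice. WT lung replicates 1, 2 and 3 had Kpna2 values of 0, 5.33 and 6.63, against 9.24, 9.06 and 8.99 in KO lungs. WT lungs had Gm10184 values of 9.49, 9.32 and 10.42, and all 3 KO lungs had it listed at 0. For both genes the KO and WT lungs did not overlap, in opposite directions. Against a floor of 3 counts in each KO library, Gm10184 was at least 330-fold lower in the KO lungs (mean of scaled estimated counts).

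The hearts held the same exchange. Kpna2 was at 4.04, 3.45 and 4.43 in the WT hearts and at 9.72, 9.88 and 9.88 in the KO hearts. The KO hearts stood above all WT hearts, with a log2 difference of 5.85 (SE 0.26, adjusted p = 3.22e-05, limma). Gm10184 was at 11.72, 11.75 and 12.02 in the WT hearts and at 2.61, 0 and 2.43 in the KO hearts. It fell by 10.15 on the log2 scale (SE 0.60, adjusted p = 0.000182, limma). The KO values above 0 rest on 5.53 and 4.72 estimated counts, so the size of this fall depends on the value given to a zero. Each gene passed the filter on low values through the group where it is high, so nothing is read from the count of 2 of 8 members called, set beside 0.085% of the 15303 heart genes tested. With no filter the adjusted p was 1.7e-05 for Kpna2 and 6.82e-05 for Gm10184 (limma). The members were chosen with earlier results of these data known, so these tests are not independent support for the exchange. The hearts came from the same mice as the lungs, so they repeat the measurement in another tissue and not in other animals. In the fit of all 12 libraries, whose spread includes the WT lungs, Kpna2 was not called in the heart (adjusted p = 0.0956).

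The exchange was nearly complete in the transcripts. Of the estimated counts given to Kpna2 and its 6 near-identical copies together, Gm10184 held 99.9%, 97.7% and 96.3% in the WT lungs and 99.7%, 99.8% and 99.5% in the WT hearts. Kpna2 held 99.9%, 100% and 99.0% in the KO lungs and 99.6%, 99.9% and 99.6% in the KO hearts. The other 5 copies, Gm10259, Gm12919, Gm13310, Gm16436 and Gm5832, together held at most 0.951% in any library, in KO lung replicate 3. The pseudogene Gm10259, which carries the same bases as Gm10184 in the stretch shown, was above 0 in only 2 libraries, at 2.61 in WT lung replicate 3 and 2.90 in KO lung replicate 3.

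Among the Kpna2 transcripts, the full-length ENSMUST00000018506.13 carried the KO signal. On the scale log2(1 + scaled estimated count) its values were 0, 1.96 and 4.55 for WT lungs and 9.76, 9.58 and 9.27 for KO lungs. In the hearts it was at 1.99, 0 and 0 in WT and at 10.24, 10.39 and 10.39 in KO, without overlap. The single Gm10184 transcript, ENSMUST00000086423.6, held all of the Gm10184 counts. Both transcripts passed the filter in the heart through 1 group alone, so no test is given for them, and nothing is read from their being the 2 called of 12 member transcripts tested there, beside 0.0626% of the 31931 heart transcripts tested. Of the other 10, 0 were called by limma and 0 were at an unadjusted p under 0.05. When either KO replicate 1 or KO replicate 3 was left out, 0 member transcripts were called, and with any other single library left out at most 1 was. The remaining Kpna2 signal in WT libraries lay in part in short transcripts. ENSMUST00000106768.2 was at 2.78 and 4.41 in WT lung replicates 2 and 3 and at 2.08 in WT heart replicate 1, and it was listed at 0 in every KO library. The nonsense-mediated decay transcript ENSMUST00000145331.8 reached 6.60 in KO lung replicate 3 and 4.002 in WT heart replicate 3. The deposited Kpna2 gene value is not the sum of its transcripts. It lay 0.49 to 0.52 below that sum, on the log2 scale, in all KO libraries, and 0 to 1.46 above it in the WT libraries.

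**Figure D1:**
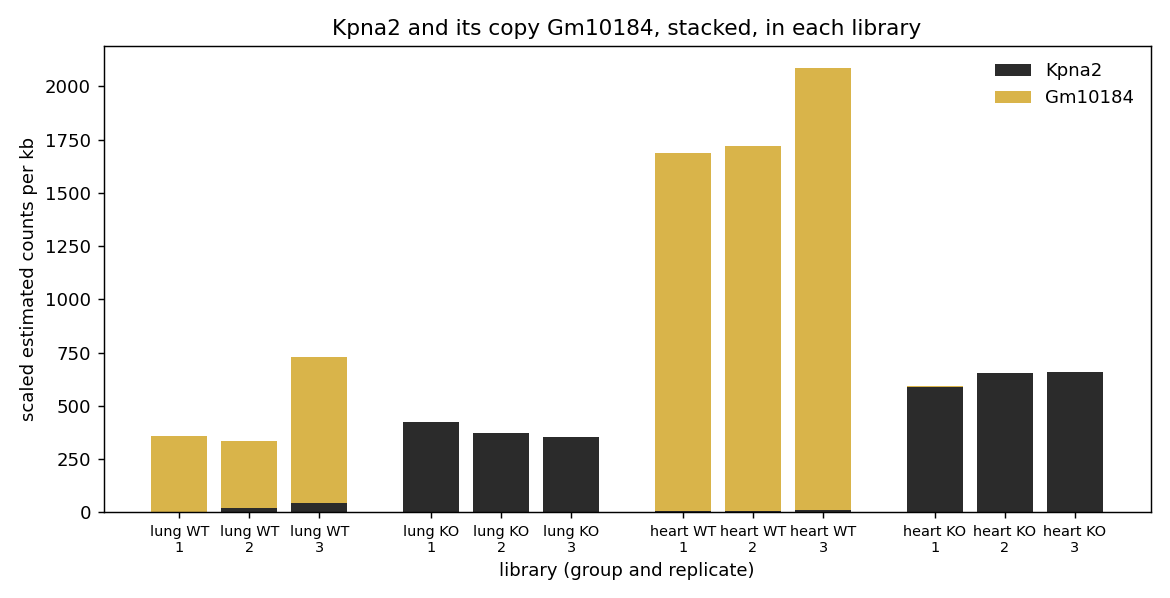
Scaled estimated counts per kb of transcript of Kpna2 (dark) and Gm10184 (yellow), stacked, in each of the 12 libraries by group and replicate. WT libraries hold almost only Gm10184 and KO libraries almost only Kpna2, and the stacked total is 1686 to 2085 in WT hearts and 592 to 659 in KO hearts, while the lungs overlap at 336 to 727 in WT and 352 to 422 in KO.

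Summing Kpna2 with its 6 copies gives a level that does not depend on how reads were divided among them. On the log2 scale the sum was 9.48, 9.34 and 10.46 for WT lungs and 9.76, 9.58 and 9.49 for KO lungs. The lung groups overlapped, with a mean difference of −0.15, KO minus WT, that became 0.14 when each count was divided by its library's total (total-count scaling). That scaling moved the median of all lung genes from 0.01 to 0.30. In the hearts the sum was 11.71, 11.74 and 12.02 in WT and 10.25, 10.40 and 10.41 in KO. All KO hearts lay below all WT hearts, by 1.47 on the log2 scale (SE 0.12, adjusted p = 0.0025, limma), which is 2.77-fold lower. Per kb of transcript, WT hearts held 1831 ± 221 scaled estimated counts of Kpna2 and Gm10184 together and KO hearts 636 ± 38.1 (SD, n = 3 for each). WT lungs were at 473 ± 220 and KO lungs at 382 ± 36.0 (SD, n = 3 for each). The heart fall held when any library was left out (−1.53 to −1.37, adjusted p 0.00666 to 0.0288, limma). Whether the genotype difference of the sum differs between heart and lung was not tested. In these whole organs, fewer cells of a type and less RNA per cell cannot be told apart.

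The other alpha adaptors did not pass the test for genotype in either tissue. In the lung, 0 of the 6 other members were called, with 0 at an unadjusted p under 0.05 and 0 by limma-voom, against 0.0665% of 16551 genes. Their log2 differences, KO minus WT, lay between −0.20 and 0.15, with a median of 0.06 against 0.01 over all genes tested (adjusted p 0.878 to 0.973, limma). With total-count scaling both medians moved together, to 0.32 and 0.30. In every one of them the WT and KO lungs overlapped. Of all lung genes tested, 6.4% had every KO library below every WT library, and the share with every KO library above was not counted. In the heart, 0 of these 6 were called, again with 0 at an unadjusted p under 0.05 and 0 by limma-voom. Their differences lay between −0.32 and −0.10, with a median of −0.26 against 0.03 over all genes (adjusted p 0.671 to 0.847, limma).

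Kpna1 (ENSMUSG00000022905.13, chromosome 16, 35799120 to 35859478) encodes importin alpha 5. Its values were 8.76, 9.05 and 9.17 for WT lungs and 8.63, 8.62 and 9.14 for KO lungs. In the hearts it was at 10.78, 11.08 and 10.99 in WT and at 10.42, 10.71 and 10.76 in KO. The KO hearts were all below the WT hearts, by 0.32 (SE 0.14, adjusted p = 0.681, limma), a difference that was not called. Kpna6 (ENSMUSG00000003731.14, chromosome 4, 129537773 to 129566567) encodes its closest relative, importin alpha 7. Its values were 10.26, 10.50 and 10.18 for WT lungs and 10.37, 10.38 and 10.41 for KO lungs. In the hearts it was at 11.48, 11.73 and 11.63 in WT and at 11.27, 11.42 and 11.33 in KO, again without overlap (difference −0.27, SE 0.12, adjusted p = 0.671, limma). Kpna1 and Kpna6 were the 2 of these 6 members with every KO heart below every WT heart, as were 5.23% of all heart genes tested.

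Kpna3 (ENSMUSG00000021929.10, chromosome 14, 61601398 to 61677662) and Kpna4 (ENSMUSG00000027782.11, chromosome 3, 68974482 to 69034446) encode importins alpha 4 and alpha 3. Kpna3 values were 9.33, 9.48 and 9.88 for WT lungs, 9.55, 9.59 and 9.68 for KO lungs, 10.83, 11.16 and 10.76 for WT hearts and 10.58, 10.82 and 10.61 for KO hearts. Kpna4 values were 10.76, 10.72 and 11.08 for WT lungs, 10.77, 10.86 and 10.72 for KO lungs, 11.05, 11.47 and 11.23 for WT hearts and 10.93, 11.19 and 10.98 for KO hearts. For both genes, WT and KO overlapped in both tissues. The heart differences were −0.25 for Kpna3 and −0.22 for Kpna4 (SE 0.14 for each, adjusted p 0.740 and 0.755, limma).

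Kpnb1 (ENSMUSG00000001440.6, chromosome 11, 97050540 to 97078856) encodes importin beta 1, the carrier that the alpha adaptors share. Kpnb1 starts 51.1 Mb from the start of Adam19 on the same chromosome, and Kpna2 60.9 Mb from it. Kpnb1 values were 11.83, 11.92 and 11.44 for WT lungs and 11.93, 11.91 and 11.78 for KO lungs. In the hearts it was at 12.19, 12.28 and 12.16 in WT and 12.06, 12.25 and 12.02 in KO. The groups overlapped in both tissues, with differences of 0.15 (SE 0.17) in the lung and −0.10 (SE 0.12) in the heart. Cse1l (ENSMUSG00000002718.15, chromosome 2, 166747947 to 166792591) exports importin alpha. WT lungs had values of 9.60, 9.94 and 10.49 and KO lungs 10.22, 10.02 and 10.11. In the hearts it was at 10.98, 11.41 and 10.65 in WT and 10.58, 10.89 and 10.80 in KO. The groups overlapped in both tissues, with differences of 0.11 (SE 0.22) in the lung and −0.26 (SE 0.19) in the heart.

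**Figure D2:**
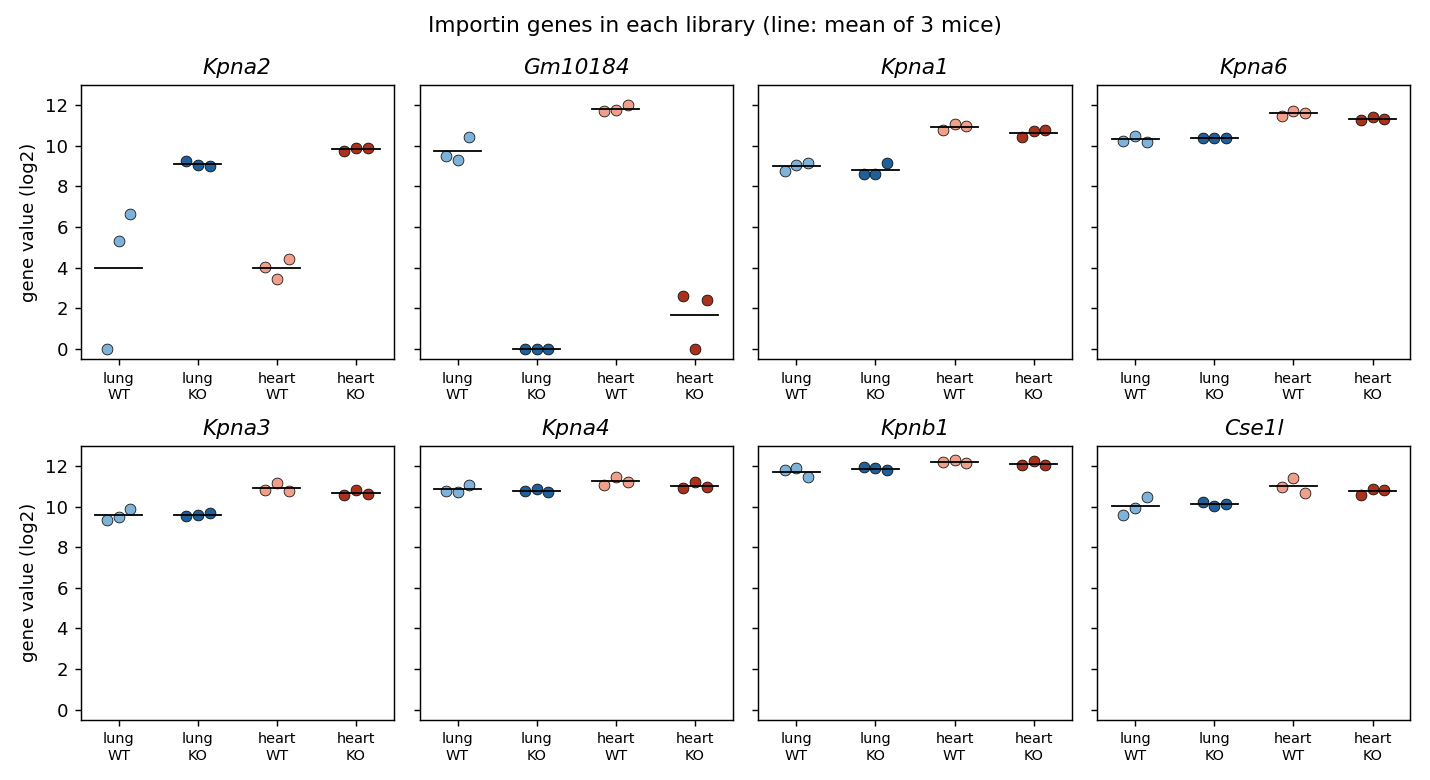
Deposited log2 gene value of the 8 importin genes in each library, with points for the 3 mice of a group and a line at their mean. Kpna2 and Gm10184 exchange levels between WT and KO in both tissues, Kpna1, Kpna3 and Kpna6 are higher in heart than in lung, and the 6 genes other than Kpna2 and Gm10184 stay within 0.32 between genotype means.

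Several importins differed between lung and heart. In WT mice, 5 of 8 members were called between lung and heart, all of them higher in the heart. Among all 16636 genes tested there, 50.2% were called, and 20.5% were called and higher in the heart. Kpna1 was 3.86-fold higher in the WT heart (log2 lung minus heart −1.95, SE 0.17, adjusted p = 2.58e-05, limma). Kpna3 was 2.56-fold higher (−1.36, SE 0.20, adjusted p = 0.000413, limma) and Kpna6 was 2.46-fold higher (−1.30, SE 0.15, adjusted p = 0.000138, limma). Cse1l was 2.01-fold higher in the heart (−1.01, SE 0.27, adjusted p = 0.0116, limma). Gm10184 was 4.25-fold higher (−2.09, SE 0.28, adjusted p = 0.00028, limma), a value that rests on how reads were divided between it and Kpna2. Kpnb1 had an adjusted p of 0.0361 from limma, at a 1.40-fold difference that is under the fold asked for. Kpna4 was not called, at −0.39 (SE 0.17, adjusted p = 0.0796, limma), nor was Kpna2, at 0.01 with an SE of 1.47. The wide error of Kpna2 follows its WT lung values, which run from 0 to 6.63, and its difference moved between −1.31 and 2.01 as single libraries were left out.

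In KO mice, 5 of the 7 members that passed the filter on low values were called, all of them higher in the heart, against 53.2% of 16802 genes called and 22.3% called and higher in the heart. Gm10184 did not pass the filter there. Kpna1 was 3.56-fold higher in the KO heart (−1.83, SE 0.17, adjusted p = 2.39e-05, limma). Kpna3 was 2.08-fold higher (−1.06, SE 0.11) and Kpna6 was 1.94-fold higher (−0.95, SE 0.09), with adjusted p of 4.17e-05 and 3.26e-05 from limma. Kpna2 was 1.66-fold higher (−0.73, SE 0.12, adjusted p = 0.000562, limma) and Cse1l was 1.56-fold higher (−0.64, SE 0.12, adjusted p = 0.00125, limma). Kpna4 (−0.25, SE 0.11) and Kpnb1 (−0.24, SE 0.11) were not called. Over the alternative settings the difference ran from −0.52 to 0.48 for Kpna4 and from −0.51 to 0.46 for Kpnb1, so its direction depends on the setting. Whether any of these tissue differences depends on genotype was not tested. The tissue comparisons use the same libraries as the genotype comparisons.

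The summed copies of Kpna2 were also higher in the heart. In WT mice the heart was 4.18-fold higher (lung minus heart −2.06, SE 0.29, adjusted p = 0.000316, limma), and in KO mice 1.67-fold higher (−0.74, SE 0.11, adjusted p = 0.000296, limma). Only the WT difference was called under each scaling tried. With total-count scaling, the KO difference of the sum was −0.04 (adjusted p = 0.787, limma).

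The tissue differences depend on how libraries are scaled to each other. On the deposited scale the median of all genes, lung minus heart, was 0.30 in WT mice and 0.28 in KO mice, so the importins above lay further below the median gene than below 0. With total-count scaling the medians were 0.74 and 0.96, and with centring on the median they were 0.0022 and 0.0058. Of the genes called in WT mice, 40.8% were higher in the heart on the deposited scale, 25.9% with total-count scaling, 26.9% with limma-voom and 52.5% with median centring. In KO mice the shares were 41.9%, 20.8%, 21.8% and 52.5%. Kpna1 was called higher in the heart in both genotypes under each of these scalings, and it was the 1 member still called in KO mice with total-count scaling (−1.10) or limma-voom (−1.17). Kpna3 and Kpna6 were called under each of them in WT mice, but in KO mice not with total-count scaling (−0.36 and −0.16) or limma-voom. In KO mice Kpna2 alone came to −0.042 with total-count scaling. With total-count scaling Cse1l was called in neither genotype, and with limma-voom its KO difference turned to 0.03.

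**Figure D3:**
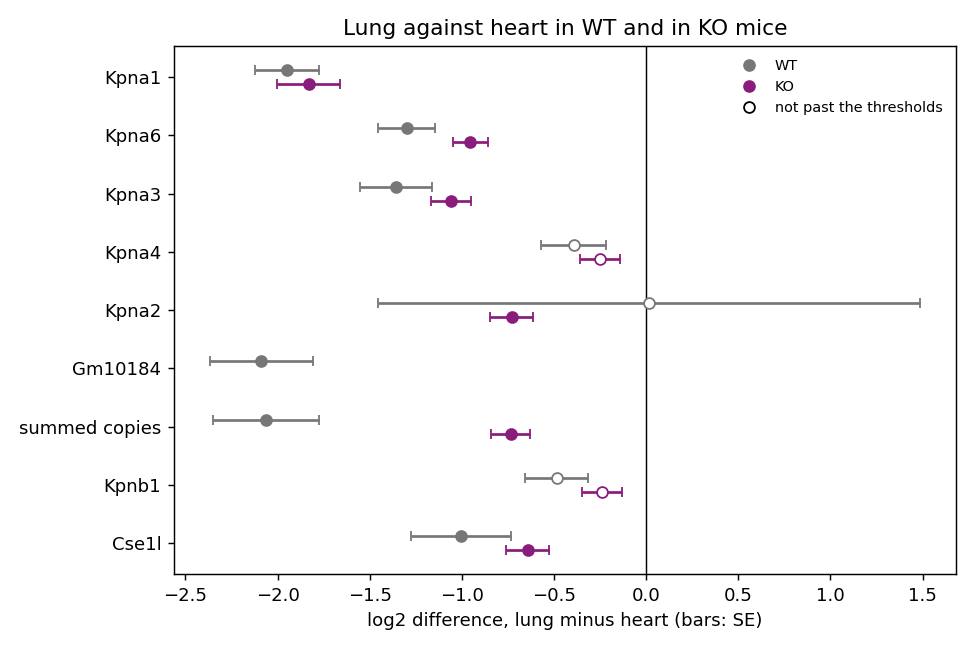
Log2 difference, lung minus heart, of each importin gene and of Kpna2 summed with its copies, in WT (grey) and KO mice (purple), with SE as bars and filled points past the thresholds. Points left of 0 are higher in the heart. Kpna1 lies furthest left of the genes other than Gm10184 and the sum in WT mice, and Kpna2 in WT mice has the widest bar.

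Levels can be set against each other between genes only per kb of transcript, and on that scale the order of the importins differed between the tissues. The separate places of Kpna2 and Gm10184 in each order rest on how reads were divided between them by estimation. In the WT lung, Kpnb1 was highest at 583 ± 98.2 scaled estimated counts per kb, then Gm10184 at 452 ± 200, Cse1l at 311 ± 98.9, Kpna1 at 262 ± 26.2, Kpna4 at 233.5 ± 47.2 and Kpna6 at 230 ± 18.6 (SD, n = 3). Each of these overlapped the next. Kpna3 followed at 144 ± 28.9 and Kpna2 at 20.9 ± 22.4 (SD, n = 3), each apart from the gene above it. In the KO lung, Kpna2 stood at 382 ± 36.0, below Kpnb1 at 643 ± 36.8 and above Cse1l at 318 ± 19.5, with no overlap between them. Kpna6, Kpna1 and Kpna4 overlapped at 254, 235.6 and 229, and Kpna3 lay below them at 146.

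In WT hearts the level that does not depend on the division of reads is the sum of Kpna2 and Gm10184, at 1831 per kb. As divided, Gm10184 was listed highest of the 8 in the WT heart at 1822 ± 218 per kb (SD, n = 3). Below it were Kpna1 at 1054 ± 119, Kpnb1 at 812 ± 37.1 and Cse1l at 610 ± 151 (SD, n = 3). No neighbours among these 4 overlapped. Cse1l overlapped Kpna6 at 531 ± 36.4, and Kpna3 at 366 ± 56.0, Kpna4 at 281 ± 42.6 and Kpna2 at 8.44 ± 3.81 followed, each apart from the one above. In the KO heart, Kpna1 at 852 ± 107 overlapped Kpnb1 at 760 ± 64.4, and Kpna2 was next at 634 ± 38.9, apart from both Kpnb1 and Cse1l at 505 ± 53.1 (SD, n = 3). Kpna6 at 448, Kpna3 at 305 and Kpna4 at 241 closed the order above Gm10184 at 1.60. With all transcripts of a gene summed, Kpna4 was thus close to Kpna1 and Kpna6 in the lungs and the lowest alpha adaptor with a clear level in the hearts. For Kpna1 that sum rests largely on ENSMUST00000173696.8, annotated as a target of nonsense-mediated decay. It held a mean of 56.7% of the Kpna1 counts in WT hearts and 56.2% in KO hearts. The full-length ENSMUST00000004054.13 held 32.5% and 32.8%, so the place of Kpna1 is not that of its full-length transcript.

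Of the 44 member transcripts, 34 were above 0 in at least 1 library and 10 were at 0 in all of them. In the lung, 11 of the 36 transcripts of the other 6 members were tested for genotype and 0 were called, against 0.0841% of 36845 transcripts. At an unadjusted p under 0.05 from limma there was 1, beside 6.1% of all lung transcripts. That 1 was the Cse1l transcript ENSMUST00000169290.8, annotated as a target of nonsense-mediated decay. Its values were 0, 5.07 and 0 for WT lungs and 4.92, 5.08 and 6.63 for KO lungs (difference 3.85, SE 1.53, adjusted p = 0.812, limma). The lung groups overlapped. It was at 0 in all 3 WT hearts and at 4.55, 3.21 and 4.22 in the KO hearts, too low to be tested there. The hearts came from the same mice as the lungs. The KO values rest on 34.1 to 80.6 estimated counts in the lungs and 8.65 to 24.3 in the hearts. This transcript held at most 9.37% of the Cse1l counts, in KO lung replicate 3, and the full-length ENSMUST00000002790.14 held 86.0% to 99.5% in all libraries.

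Between tissues, 6 of the 12 member transcripts tested were called in WT mice, against 29.2% of all transcripts, and 10 of 13 in KO mice, against 37.2%. The 6 called in WT mice were all higher in the heart, as were 9 of the 10 in KO mice, 1 of which (Kpna6 ENSMUST00000003828.11) was at 0 in every KO lung. The exception was in Kpna4. Its transcript ENSMUST00000029353.9 was at 9.38, 9.37 and 9.25 in the KO lungs and 8.48, 8.81 and 8.46 in the KO hearts, higher in the lung by 0.75 (SE 0.13, adjusted p = 0.00501, limma). Its main transcript ENSMUST00000194558.6 went the other way, at 10.32, 9.92 and 10.29 in the KO lungs and 10.65, 10.91 and 10.71 in the KO hearts (−0.58, SE 0.14, adjusted p = 0.0178, limma). The former held 23.1% to 39.9% of the Kpna4 counts in the lungs and 16.2% to 18.8% in the hearts, a pair of ranges that do not overlap.

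A lesser Kpna6 transcript was detected unevenly between tissues. ENSMUST00000003828.11 was at 7.79, 8.35 and 8.35 in the WT hearts and 7.77, 7.35 and 7.97 in the KO hearts. In the lungs it was at 6.42 and 6.85 in WT replicates 1 and 2 and listed at 0 in WT replicate 3 and in all 3 KO lungs. In WT mice the tissue difference was not called (−3.74, SE 1.85, adjusted p = 0.163, limma). In KO mice it passed the filter through the hearts alone, and its heart level was at least 77.0-fold higher than a floor of 3 counts in each lung library, a description with no test. The 2 lungs above 0 are also the 2 with the highest Rn7s1 shares. Kpna1 counts were led by a transcript annotated as a target of nonsense-mediated decay, ENSMUST00000173696.8, which held 49.5% to 67.8% of them in 11 libraries and 19.3% in WT lung replicate 3. In that library the full-length ENSMUST00000004054.13 held 69.3%, against 19.4% to 43.2% in the others.

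**Figure D4:**
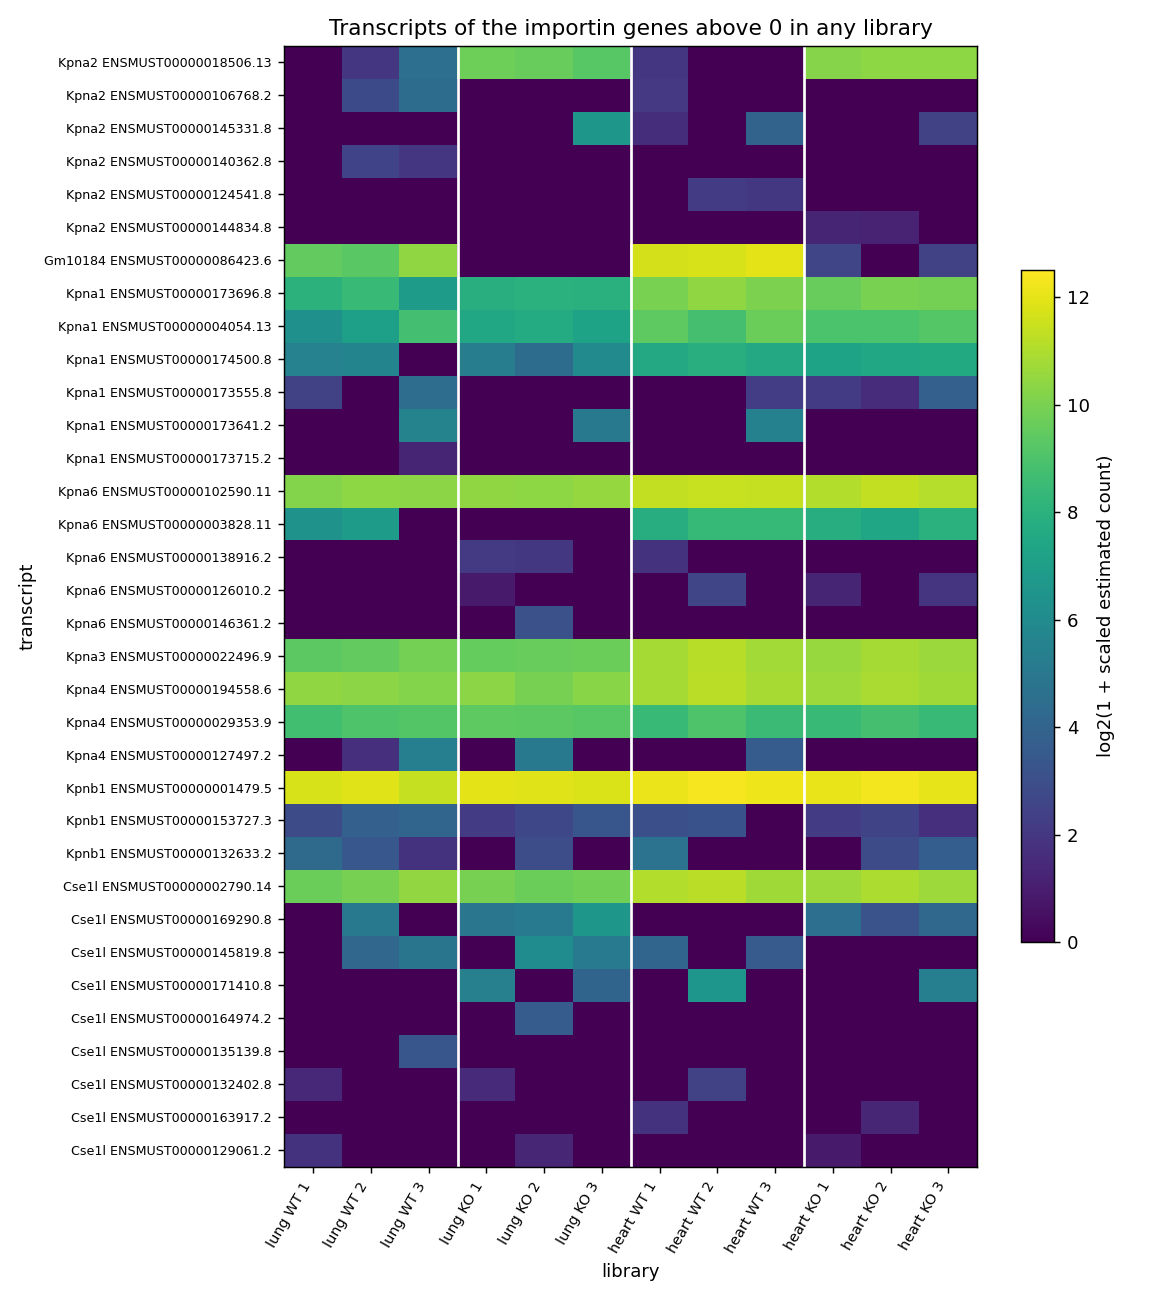
Heat map of the 34 importin transcripts above 0 in any library (rows, grouped by gene) over the 12 libraries (columns), coloured by log2(1 + scaled estimated count), with white lines between the 4 groups. The Kpna2 transcript ENSMUST00000018506.13 is bright in KO libraries only, the Gm10184 transcript in WT libraries only, and most other rows above 8 are bright in all 12.

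Of 17658 genes compared over the 12 libraries, a few had a pattern close to that of Kpna2 or Gm10184. Most like Kpna2 were Zfp532 (Pearson r = 0.90), Pttg1 (0.89), the Adam19-tdTomato construct (0.88), Aqp4 (0.84) and Abhd4 (0.82). Pearson r does not weigh the size of a change, and Zfp532, Aqp4 and Abhd4 shifted far less than Kpna2. Zfp532 had means of 9.53 and 9.78 in WT and KO lungs and 9.44 and 9.83 in WT and KO hearts. Pttg1, which encodes securin, had means of 5.30 and 9.32 in WT and KO lungs and 6.05 and 10.43 in WT and KO hearts. Most like Gm10184 were the processed pseudogenes Gm18860 (0.97), Gm12663 (0.97), Gm4811 (0.96) and Gm6685 (0.96) and the noncoding RNA AA465934 (0.95). Gm6685 values were 3.97, 5.44 and 5.05 for WT lungs and 3.77, 4.96 and 5.21 for WT hearts, and it was listed at 0 in all 6 KO libraries. Most like the summed copies were Cerk (0.96), Larp4 (0.95), Pfkfb2 (0.94), Gfpt2 (0.93) and Cd59a (0.93). Cerk, which encodes ceramide kinase, had means of 9.79, 9.66, 10.58 and 10.16 in WT lungs, KO lungs, WT hearts and KO hearts. These correlations describe 12 libraries from 6 mice that fall into 4 groups, and no p is attached to them.

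The other genes of nuclear transport, and genes of cell division, were taken as 6 lists of 80 genes. For genotype, 0 of the 77 lung genes tested and 0 of the 73 heart genes tested were called, and 0 by limma-voom in both. At an unadjusted p under 0.05 from limma there were 1 and 3, beside 5.93% of all lung genes and 7.46% of all heart genes. Ran, the GTPase that sets the direction of transport, was the 1 in the lung, at a mean of 10.56 in KO and 11.34 in WT (difference −0.78, SE 0.23, adjusted p = 0.806, limma). In the heart the 3 were the nucleoporins Nup153 and Nup188 and the replication gene Mcm7, none of them with an adjusted p under 0.609 from limma. The median difference of the 25 cell division genes in the lung was −0.27, with 24 of 25 below 0, beside 0.01 over all genes tested. With total-count scaling it was 0.02 beside 0.30. In the heart the median of the 21 tested was 0.11.

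The counts of each list between tissues, here and below, stand beside 50.2% of all genes called in WT mice and 53.2% in KO mice. Called and higher in the heart were 20.5% and 22.3%. Of 10 import receptors of the importin beta family, 4 were called in WT mice, all 4 higher in the heart (median −0.27). Ipo5, an importer of ribosomal proteins and histones, was at −1.89 (SE 0.14, adjusted p = 9.3e-06, limma), Ipo13 at −1.18 (SE 0.20) and Ipo4 at −1.15 (SE 0.23). In KO mice 4 of 10 were called higher in the heart and 2 higher in the lung, Tnpo2 (0.83, SE 0.16) and Ipo8 (0.80, SE 0.17). Snupn, the adaptor for spliceosomal RNA particles, was not called in WT mice (−0.34, SE 0.23) and was called in KO mice (−0.76, SE 0.16). Kpna7, the remaining alpha gene, was listed at 0 in all 12 libraries. Of the 6 exportins other than Cse1l, 1 was called in WT and 3 in KO mice, all higher in the lung. Xpo6, the exporter of actin, was the one called in WT mice, at 0.78 (SE 0.15, adjusted p = 0.00195, limma). With median centring it was not called (0.49) and 2 exportins were called higher in the heart.

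Of 8 Ran cycle genes, 1 was called in WT mice, Rangrf, at −3.08 (SE 0.38, adjusted p = 0.000161, limma), and 2 in KO mice, Rangrf and Ran, all higher in the heart. Rangrf encodes MOG1, which binds Ran and is also known as a partner of the cardiac sodium channel. Of 27 nucleoporins, 5 were called higher in the lung and 2 higher in the heart in WT mice, led by Nup210 at 3.28 (SE 0.32), Ndc1 at −1.17 (SE 0.23) and Nup153 at 0.93 (SE 0.17). In KO mice the counts were 5 and 3. Cell division genes were called in the lung direction alone, also under each scaling tried. Of 25, 14 were called in WT mice and 11 in KO mice, all of them higher in the lung. Of all genes, 4945 of 16636 in WT and 5190 of 16802 in KO mice were called and higher in the lung. The medians of the 25 were 1.51 and 0.98 beside 0.30 and 0.28 over all genes. Only 21 of the 25 passed the filter in the heart libraries alone. The rest needed lung libraries to enter these tests, which favours the lung direction for them. Bub1 (4.12, SE 0.93), Bub1b (2.60, SE 0.41) and Top2a (2.14, SE 0.36) differed most in WT mice.

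These tissue counts shift with the scaling. With total-count scaling, 4 beta family receptors were called higher in the lung and 3 higher in the heart in WT mice, and their median was 0.02. In KO mice they were 4 and 1. With median centring the KO counts were 0 and 5, and with gene values summed from transcripts 0 and 4. Tnpo2 and Ipo8 were thus not called higher in the lung under either of these. For nucleoporins in WT mice the counts were 9 and 0 with total-count scaling and 3 and 7 with median centring. Ipo5, Rangrf, Nup210, Nup153, Bub1b and Top2a kept their direction and call in both genotypes under limma-voom, total-count scaling and median centring. With gene values summed from transcripts, Nup153 was not called in WT mice (0.57).

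**Figure D5:**
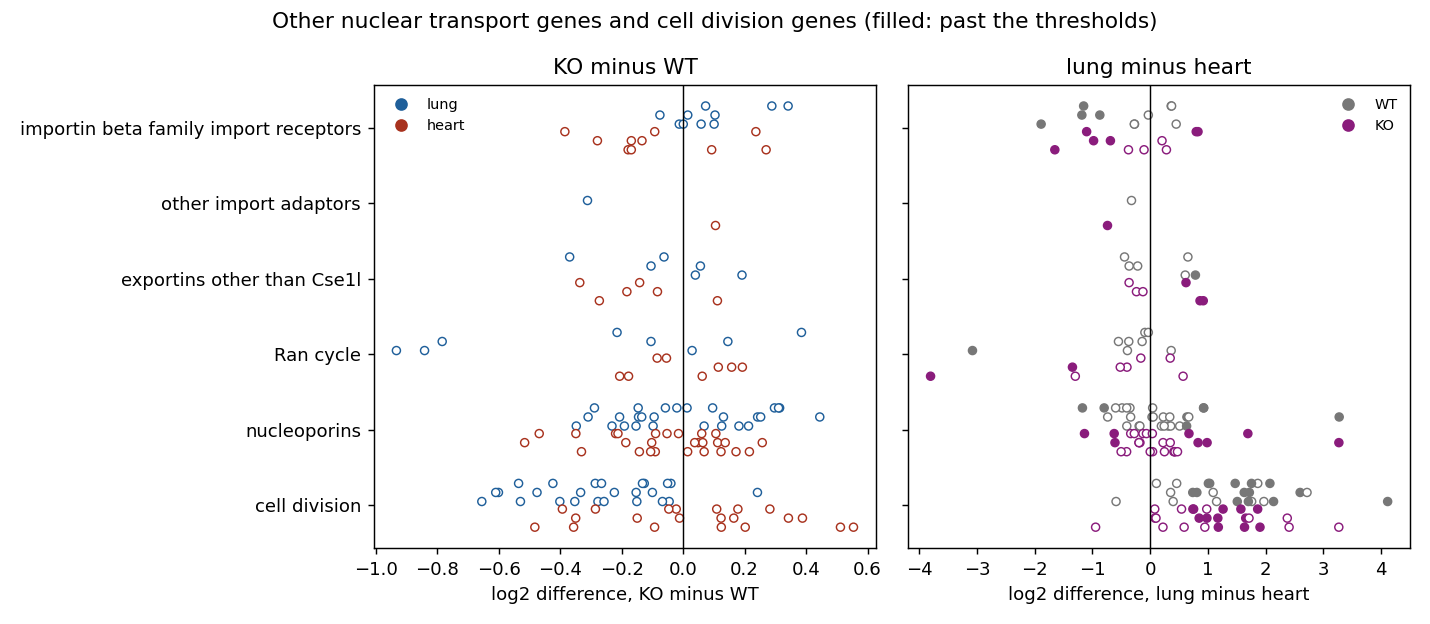
Log2 differences of the genes in 6 lists, KO minus WT in lung (blue) and heart (red) on the left and lung minus heart in WT (grey) and KO mice (purple) on the right, with 1 point per gene and filled points past the thresholds. On the left 0 points are filled, and on the right cell division genes lie mostly to the right of 0 while the filled import receptors of WT mice lie to its left.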

How the data were processed

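Strand-specific total RNA libraries were made from the lung and heart of 3 WT and 3 KO mice. The authors quantified reads with Salmon against GENCODE vM33 transcripts of mm39, and the submitters' processing notes also list cutadapt, STAR and limma 3.42.2. The deposited gene and transcript values are on a log2 scale. The deposited transcript values are log2(1 + estimated count). For genes with 1 transcript, gene values differ from these by a constant for each library, −0.63 to 0.80 on the log2 scale. It was estimated from such genes with a transcript value of at least 9, and at least 95.7% of them matched it within 0.01. Genes with more transcripts could depart from it, as Kpna2 did by −0.52 to 1.46. Here, transcript counts were multiplied by 2 to the power of that constant before 1 was added, so that 0 stays 0. This was chosen after the files were seen, since the design had the constant added to the log value. Total-count scaling multiplied each count by the mean library total over the library's own, with a pseudocount of 1. No column of other samples was used (0 columns).

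Members and lists were chosen with earlier results of these data known. Genes with a value of at least log2(1 + 10) = 3.46 in 3 libraries, or 2 where a library was left out, were tested with limma 3.58.1 in R 4.3.3 (lmFit, eBayes with a variance trend, Benjamini-Hochberg adjustment over all features). Called means an adjusted p under 0.05, at least 1.5-fold and a larger group mean of at least 6. Each contrast was fitted on its 6 libraries. Named list genes are all those called for genotype and, between tissues, the 3 called with the largest difference in WT mice. Others named there were singled out after their values were seen. The 5 most alike genes by Pearson r are named. Likeness left out the members and copies. Copies were found with blastn 2.17.0 (at least 95% identity over at least 500 nucleotides). Sequences and coordinates are from GENCODE vM39 on GRCm39, which matched all 44 member transcripts, and no protein letters are printed. Scripts were tested on simulated data. Lung and heart replicates of a number are the same mouse by its identifier, and their deviations correlated at 0.05, 0.14 and −0.02 in WT and 0.02, −0.07 and −0.04 in KO mice over 17666 genes. P-values with 3 mice a group measure only the spread between these mice. Counts are estimates, so floors of 3 counts cover counting error only. The alternatives were other filters, no variance trend, 1 fit of all 12 libraries, limma-voom, zeros as missing, summed transcripts, other scalings, single libraries left out and the mouse as a block.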

Additional observations from a re-analysis of the deposited data

How the results depend on the processing

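For genotype, the count of other members called in the lung was 0 under all alternatives. In the heart the count of 2 members called became 0 with a filter asking for a value in every library, since that filter removes both genes, and 1 with all 12 libraries in the fit, where Kpna2 was not called. It was 2 with each library left out. The count of 2 member transcripts called in the heart ranged from 0 to 1 as single libraries were left out. Between tissues in WT mice, the 5 members called became 4 to 7. In KO mice they became 1 with limma-voom and 1 with total-count scaling, and the cause was not tested. With total-count scaling the summed copies in KO mice moved to −0.041 and were no longer called, and with limma-voom Cse1l in KO mice turned to 0.035. Single libraries left out gave 4 to 5 members in KO mice, where Cse1l was not called without heart KO replicate 2. With the mouse as a replicate block, 5 members were called in WT and 5 in KO mice, and the sum differed by −2.06 and −0.74, with no gene call of a member or of the sum changed. The block gave 4 member transcripts in WT and 9 in KO mice. The lung Kpna2 difference, 5.11 as deposited, was 3.12 to 6.43 with single libraries left out. It was 3.12 without WT replicate 1, which is at 0, and up to 6.75 over the other alternatives, and that of Gm10184 was −10.66 to −9.40 over all of them. Genes called in the lung, 11 in all, were 1 with the filter on every library and 10 to 14 with single libraries left out, and lung transcripts called, 31 in all, were 1 to 163, and 72 at most under another setting. In the heart, 13 genes called became 7 to 14, or 10 to 21 with single libraries left out, and 20 transcripts became 20 to 49, or 3 to 47. The lung difference of the summed copies ran from −0.36 to 0.21 with single libraries left out. Estimated counts of 2.07 to 10.4 for Kpna2 in WT hearts and 0 to 5.53 for Gm10184 in KO hearts limit the size of those changes.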
